A study of Mus musculus with 6 samples.

Results

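A row of 8 neighbouring microRNA hairpins on mouse chromosome 12, from Mir300 to Mir485, was followed in liver tumours and in the liver beside them. The rule took every row of the deposited table named for miR-300, miR-381, miR-487b, miR-539, miR-382, miR-134, miR-668 or miR-485, on either arm. It found 11 of the 695 rows, with both arms for 3 hairpins (Mir300, Mir382 and Mir485) and 1 arm for the other 5. An asterisk in a name marks the arm regarded as minor in older naming.

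The samples were 3 liver tumours, numbered 1293, 1309 and 1316, and 3 pieces of normal-looking liver, each labelled as lying next to a tumour of the same number. All 6 samples came from C57BL/6J mice aged 6 months, which had received 3E10 particles of the vector AAV-Rian-CMV into a superficial temporal vein on the day after birth. Adjacent liver was thus exposed to the vector as well, and no uninjected liver was analysed here. The vector, an adeno-associated virus, targets Rian, which makes a long non-coding RNA from the maternal chromosome. The labels do not say which cells carried it, whether a tumour was clonal or whether the 3 tumours came from separate animals. For the third tumour the title gives 1316, whereas 1306 stands in the source name, so that its pairing with the adjacent piece 1316 rests on the title.

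A microRNA is cut from 1 of the 2 arms of a hairpin-shaped transcript, and bases 2 to 8 of the mature strand, the seed, do most of the pairing with target messenger RNAs. The hairpins studied belong to the large microRNA cluster of the imprinted Dlk1-Dio3 region, which is transcribed from the maternal chromosome, is active in embryo, placenta and brain, and is largely silent in adult liver. Rian lies before this cluster. The table of RefSeq genes (GRCm38.p6) places all 8 hairpins between Mir376a and Mirg, the non-coding RNA gene after which the cluster is called, whose annotated start comes directly after Mir485. Mir544 lies among them but is not a member; its row, miR-544-3p, had a log2 difference of -0.03 ± 0.06 (SE, tumour minus adjacent).

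The related strands miR-300-3p and miR-381-3p are shown first because they are nearly alike in sequence and far apart in their tumour values. The other strands are shown for the 2 arms of Mir382, for the minor arms of Mir300 and Mir485, and for miR-134, miR-539 and miR-668. Sequences are those of RefSeq on GRCm38.p6, all on the plus strand of chromosome 12, written 5′ to 3′ with the seed in capitals. Of the 11 rows, 9 had an entry; miR-487b and miR-485 are named only.
mmu-miR-300-3p (chr12:109724363-109724384): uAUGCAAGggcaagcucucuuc
mmu-miR-381-3p (chr12:109726870-109726891): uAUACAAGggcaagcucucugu
mmu-miR-300-5p (chr12:109724318-109724339): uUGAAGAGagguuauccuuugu
mmu-miR-382-5p (chr12:109733781-109733802): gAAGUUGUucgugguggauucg
mmu-miR-382-3p (chr12:109733819-109733840): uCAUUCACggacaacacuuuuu
mmu-miR-134-5p (chr12:109734145-109734166): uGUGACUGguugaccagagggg
mmu-miR-539-5p (chr12:109728136-109728157): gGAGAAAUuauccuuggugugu
mmu-miR-485-3p (chr12:109734946-109734967): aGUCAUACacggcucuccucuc
mmu-miR-668-3p (chr12:109734774-109734797): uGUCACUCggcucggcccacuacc

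Names without an arm were read as the strand that carried them before arms were written out, which is background knowledge and not given in the files: miR-300, miR-381 and miR-668 as the 3p strands, miR-382 and miR-134 as the 5p strands, and miR-300*, miR-382* and miR-485* as the strands opposite the major ones. None of the 9 seeds occurred in another of the 1679 RefSeq mature mouse sequences. Between miR-300-3p and miR-381-3p, 19 of 22 bases were identical, and the differences were G4A, U21G and C22U (miR-300-3p base, position from its 5′ end, miR-381-3p base). The first of these lies in the seed, so these strands do not share one. Their longest common run, CAAGGGCAAGCUCUCU, covers bases 5 to 20 and occurred in no other sequence of that table. The 2 hairpins were also the closest pair among the 28 pairs of members' hairpins, at 73.8% identity in a global alignment. Their lead was small, since Mir539 and Mir382 reached 72.7%, and the median was 58.7%. Mir300 and Mir381 are printed whole, with the mature strands in capitals. Identity outside the mature strands was not measured separately.
Mir300 (chr12:109724313-109724391): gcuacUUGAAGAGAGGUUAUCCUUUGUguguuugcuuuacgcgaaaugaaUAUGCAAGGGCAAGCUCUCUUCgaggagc
Mir381 (chr12:109726822-109726896): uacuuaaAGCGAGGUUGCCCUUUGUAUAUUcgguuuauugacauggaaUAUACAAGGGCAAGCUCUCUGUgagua

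The hairpins span 10662 bases. Mir300 and Mir381 are 2430 bases apart, Mir487b and Mir539 follow Mir381 after 436 and a further 714 bases, and a gap of 5568 bases separates Mir539 from Mir382. The last 4 hairpins are packed closely, with 292 bases between Mir382 and Mir134, 522 between Mir134 and Mir668, and 104 between Mir668 and Mir485.

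Values below are the deposited log2 values of 1-colour Agilent arrays, 1 array per sample. Array medians lay between 6.39 and 6.44 and array maxima between 14.42 and 14.82. Members averaged 6.22 to 6.87 in adjacent liver, low on this scale, and without detection calls none could be called present or absent there. Where the adjacent signal is background, a fold can be understated, which was not tested here. The hepatocyte microRNA miR-122 was the brightest row on every array. The tumours varied more than the adjacent pieces: the SD among tumours exceeded that among adjacent pieces in 10 of 11 members and in 83.9% of all microRNAs. Tumour 1293 stands apart, since limma's array weights gave it 0.071, against 1.08 and 1.47 for tumours 1309 and 1316 and 1.98 to 2.13 for adjacent pieces.

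In tumours, 10 of the 11 members had a higher mean than in adjacent liver and 1, miR-668, a lower mean. The median log2 fold change was 0.42, against -0.03 over all 695 microRNAs. Only miR-300 and miR-381 passed limma's test at an adjusted p of 0.05, both higher, where 2.59% of all microRNAs were called higher. With the replicate block only miR-300 passed, and without tumour 1293 there were 9 members called, in a setting that called 19.6% of all microRNAs. The tumours lay above all adjacent pieces for 7 members, against a background of 8.63% of all microRNAs, and below all of them for miR-668, against 22.9%. At an unadjusted p below 0.05, 7 members were higher and 1 lower, against 5.9% and 14.1% of all microRNAs. In bulk tissue, a change in the share of cells with a microRNA and a change in its amount per cell cannot be told apart.

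**Figure D1:**
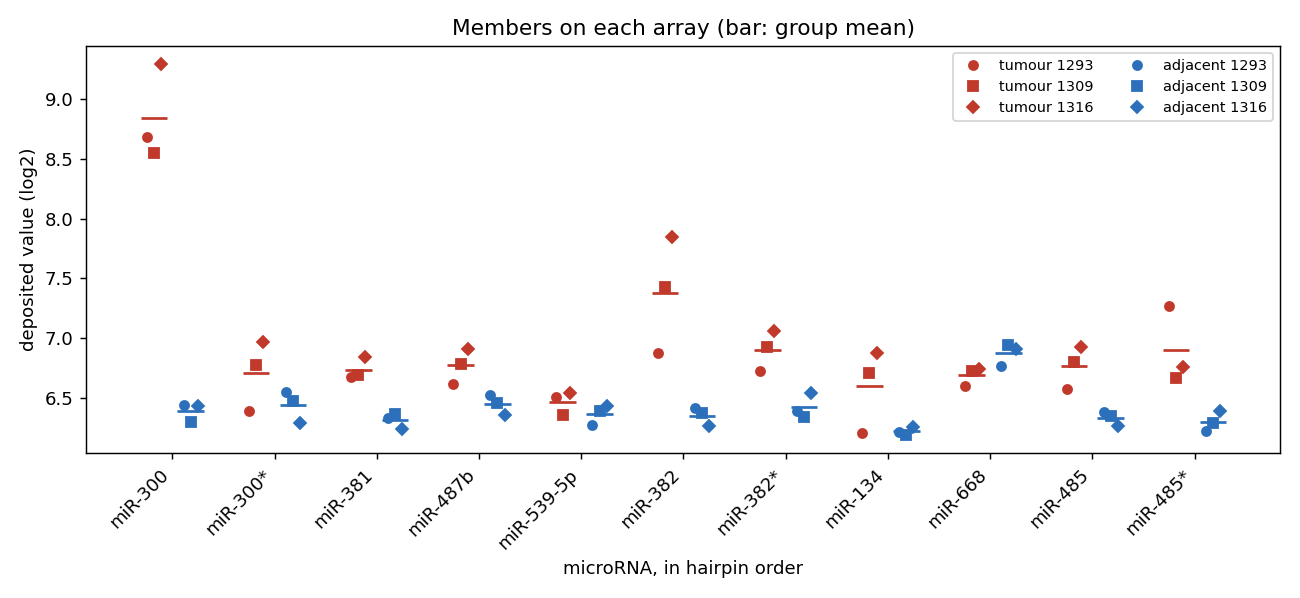
Deposited log2 value (vertical axis) of each of the 11 members (horizontal axis, in hairpin order) on each array, tumours in red left of adjacent pieces in blue, with marker shapes for pairs 1293, 1309 and 1316 and a bar at each group mean. The 3 tumours reach 8.55 to 9.29 for miR-300, while the other members stay below 7.85 on every array.

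Of all members, mmu-miR-300 differed most. It measured 8.69, 8.55 and 9.29 in tumours 1293, 1309 and 1316, against 6.44, 6.30 and 6.43 in the adjacent pieces of the same pairs. All 3 tumours were far above every adjacent piece, and tumour 1316 was the highest. The log2 fold change was 2.45 ± 0.20 (SE), or 5.48-fold, with a limma adjusted p of 0.0026 (0.013 with a replicate block for the pairs). Its rank by size was 5 among all 695 microRNAs. The call held in all 15 alternative settings, with log2 fold changes of 2.23 to 2.60.

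Its minor arm, mmu-miR-300*, comes from the same hairpin and behaved differently. It measured 6.39, 6.78 and 6.96 in tumours 1293, 1309 and 1316, against 6.55, 6.48 and 6.29 in adjacent pieces. The groups overlapped, since tumour 1293 was below 2 of the adjacent pieces while the other tumours were above all of them. A log2 fold change of 0.27 ± 0.16 (SE) did not pass (limma adjusted p = 0.44). Without tumour 1293 it was 0.43 and passed (limma adjusted p = 0.028), in a setting that called 19.6% of all microRNAs. Without pair 1293 it was 0.49 and did not pass.

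The sequence relative mmu-miR-381 was higher in tumours by a much smaller amount. It measured 6.67, 6.69 and 6.84 in tumours 1293, 1309 and 1316, against 6.33, 6.36 and 6.23 in adjacent pieces. The groups did not overlap, and within each group the arrays were close together. The log2 fold change was 0.42 ± 0.07 (SE), or 1.34-fold, with a limma adjusted p of 0.042. With the replicate block the call ended (limma adjusted p = 0.16), as it did in 10 of the 15 alternatives in all. Among these were centring on the array median (0.41, limma adjusted p = 0.075), quantile normalization (0.38, 0.089) and leaving out any 1 adjacent piece (0.39 to 0.45) or tumour 1316 (0.37). Its direction was the same in all 15, with values of 0.33 to 0.47.

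The difference between these relatives was measured within each array, where constant log2 offsets between probes cancel when tumours are set against adjacent pieces. Differences in probe response or background do not cancel, and they were not tested. In adjacent liver miR-300 averaged 6.39 and miR-381 6.31, near or below the array medians. Log2 values of miR-300 minus miR-381 lay between 1.86 and 2.45 in tumours and between -0.07 and 0.19 in adjacent liver. The change in miR-300 exceeded that in miR-381 by 1.91, 1.93 and 2.26 in pairs 1293, 1309 and 1316, or by 2.03 ± 0.20 (SD, n = 3 pairs). The exact permutation test gave a two-sided p of 0.1, the smallest that 3 arrays against 3 allow, and 0.13 after adjustment over the 4 contrasts made. The excess was 1.86 to 2.15 when any 1 array was left out. How far the 2 probes read each other's targets was not tested.

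By the same measure, the arms of Mir300 differed by a similar amount in every pair. The change in miR-300 exceeded that in miR-300* by 2.40, 1.96 and 2.19 in pairs 1293, 1309 and 1316. The mean was 2.18 ± 0.22 (SD, n = 3 pairs). The exact permutation test over unpaired arrays gave p = 0.1 (adjusted 0.13), and sign flips over pairs gave p = 0.25. The groups were apart for this contrast too.

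**Figure D2:**
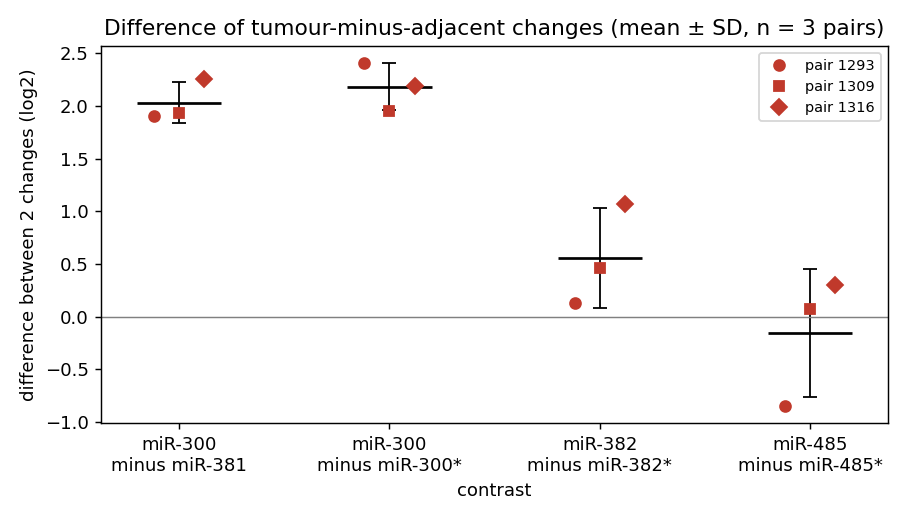
Difference between the tumour-minus-adjacent changes of 2 members (vertical axis, log2) for the 4 contrasts (horizontal axis), with 1 point per pair and the mean ± SD over 3 pairs. Both contrasts with miR-300 lie near 2 in every pair, that of Mir382 is positive but scattered from 0.13 to 1.07, and that of Mir485 crosses 0.

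The next hairpins, Mir487b and Mir539, had differences that did not pass with all 6 arrays. For mmu-miR-487b, tumours 1293, 1309 and 1316 measured 6.61, 6.79 and 6.91, against 6.52, 6.45 and 6.36 in adjacent pieces. Every tumour was above every adjacent piece, but the gap was narrow in pair 1293. Its log2 fold change was 0.33 ± 0.09 (SE) and did not pass (limma adjusted p = 0.13). It passed without tumour 1293 (0.40, limma adjusted p = 0.010) and without pair 1293 (0.44, 0.034).

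Described in mouse heart muscle as a regulator of the mitochondrial protein prohibitin 2, miR-539 is represented by its 5p strand. In tumours 1293, 1309 and 1316, mmu-miR-539-5p measured 6.51, 6.35 and 6.54, against 6.27, 6.39 and 6.43 in adjacent pieces. The groups overlapped and pair 1309 went the other way. Its log2 fold change was 0.10 ± 0.08 (SE; limma adjusted p = 0.58), with a 95% interval of -0.09 to 0.29, and it passed in none of the 14 alternatives that kept it. No other strand of this hairpin was analysed here.

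After the gap, both arms of Mir382 had higher values in every tumour than in any adjacent piece. Human miR-382 is among the microRNAs reported to act on HIV transcripts in resting T cells. In tumours 1293, 1309 and 1316, mmu-miR-382 measured 6.88, 7.43 and 7.84, against 6.41, 6.38 and 6.26 in adjacent pieces. The adjacent pieces were nearly level, while the tumours were spread over almost 1 log2 unit, with 1293 lowest and 1316 highest. The log2 fold change was 1.03 ± 0.24 (SE), or 2.04-fold, the second largest among the members, and it did not pass (limma adjusted p = 0.093). Without tumour 1293 it was 1.28 (limma adjusted p = 0.0016), and without pair 1293 it was 1.32 (0.019).

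The opposite arm, mmu-miR-382*, measured 6.72, 6.92 and 7.06 in tumours 1293, 1309 and 1316, against 6.39, 6.34 and 6.54 in adjacent pieces. All tumours were above all adjacent pieces. The log2 fold change was 0.48 ± 0.10 (SE; limma adjusted p = 0.093), and it passed without tumour 1293 (0.57, limma adjusted p = 0.0054) or pair 1293 (0.55, 0.042). The change in miR-382 exceeded that in miR-382* by 0.13, 0.47 and 1.07 in pairs 1293, 1309 and 1316. The mean was 0.55 ± 0.47 (SD, n = 3 pairs). The exact permutation test over unpaired arrays gave p = 0.1 (adjusted 0.13), and sign flips over pairs gave p = 0.25. The direction was shared by the pairs, but the size was not.

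A microRNA known from rat hippocampal neurons, where it restrains dendritic spine growth through the kinase Limk1, miR-134 was higher in 2 of the 3 tumours. In tumours 1293, 1309 and 1316, mmu-miR-134 measured 6.20, 6.71 and 6.88, against 6.21, 6.19 and 6.25 in adjacent pieces. Tumour 1293 was level with adjacent liver, so the groups overlapped. A log2 fold change of 0.38 ± 0.17 (SE) did not pass (limma adjusted p = 0.30). Without tumour 1293 it was 0.58 (limma adjusted p = 0.0024), and without pair 1293 it was 0.57 (0.023).

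Only miR-668 had a lower mean in tumours. In mouse kidney it has been described as a repressor of the mitochondrial fission protein MTP18. In tumours 1293, 1309 and 1316, mmu-miR-668 measured 6.60, 6.72 and 6.74, against 6.77, 6.94 and 6.91 in adjacent pieces. Each tumour was below every adjacent piece, by a small and even amount: -0.17, -0.22 and -0.17 by pair. The log2 fold change of -0.19 ± 0.07 (SE) did not pass (limma adjusted p = 0.24), nor did it in any of the 15 alternatives, where it stayed between -0.24 and -0.14.

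Both arms of Mir485, the last hairpin, were higher in all tumours than in any adjacent piece, yet in a different order of tumours. Strand miR-485-5p is known from rat hippocampal neurons as a repressor of the synaptic vesicle protein SV2A. In tumours 1293, 1309 and 1316, mmu-miR-485 measured 6.58, 6.80 and 6.93, against 6.38, 6.35 and 6.26 in adjacent pieces. The opposite arm, mmu-miR-485*, measured 7.27, 6.67 and 6.76 in the same tumours, against 6.22, 6.29 and 6.39 in adjacent pieces. For miR-485, tumour 1293 was the lowest of the tumours, and for miR-485* it was the highest by a wide margin.

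The log2 fold changes were 0.44 ± 0.10 (SE; limma adjusted p = 0.093) for miR-485 and 0.60 ± 0.16 (SE; limma adjusted p = 0.12) for miR-485*. Without tumour 1293 they were 0.54 and 0.41, and both passed (limma adjusted p = 0.0027 and 0.0084). The change in miR-485 minus that in miR-485* was -0.85, 0.08 and 0.30 in pairs 1293, 1309 and 1316, or -0.16 ± 0.61 (SD, n = 3 pairs; exact permutation p = 0.9, adjusted 0.9). Without tumour 1293 this difference was 0.13. A difference between these arms was thus not measurable over the spread of the pairs.

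The mature miR-485-3p shares the run UCAUACACGG with miR-154-3p and miR-207. The log2 fold change was 4.52 ± 0.25 (SE) for miR-154*, and -0.13 ± 0.05 (SE; limma adjusted p = 0.22) for miR-207. Among other members, the longest run shared with another mature sequence was 13 bases for miR-134, with miR-758-5p, and 10 for miR-300*, with miR-691. Overlap of signal through any of these shared runs was not tested.

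**Figure D3:**
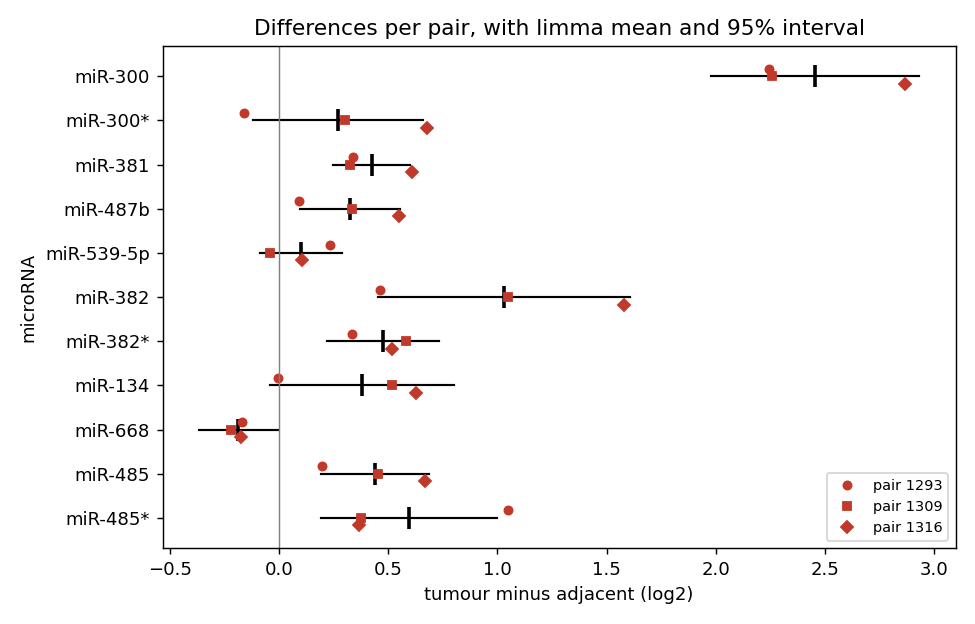
Tumour-minus-adjacent difference (horizontal axis, log2) of each member (vertical axis), with 1 point per pair, the limma estimate as a tick and its 95% interval as a line. Most members have pair 1293 at the left and pair 1316 at the right, while miR-485* has pair 1293 at the right, at 1.05.

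Across the members, tumour 1316 was the highest of the 3 tumours for 10 of 11 and tumour 1293 the lowest for 8. Over all microRNAs, 1293 was the lowest for 50.8%. It was also the highest for 37.6%, against 32.5% for 1309 and 29.9% for 1316, so it was often extreme in either direction. The median difference of the members was 0.23, 0.38 and 0.61 in pairs 1293, 1309 and 1316, while that of all microRNAs was -0.05, -0.04 and -0.03. In every pair the tumour was higher for 7 members and lower for miR-668. Without tumour 1293, limma called 9 members, all higher and all but miR-539-5p and miR-668, and it then called 19.6% of all microRNAs. Without pair 1293 it called 8 members, against 8.06% of all microRNAs, and the call of miR-300* was missing.

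**Figure D4:**
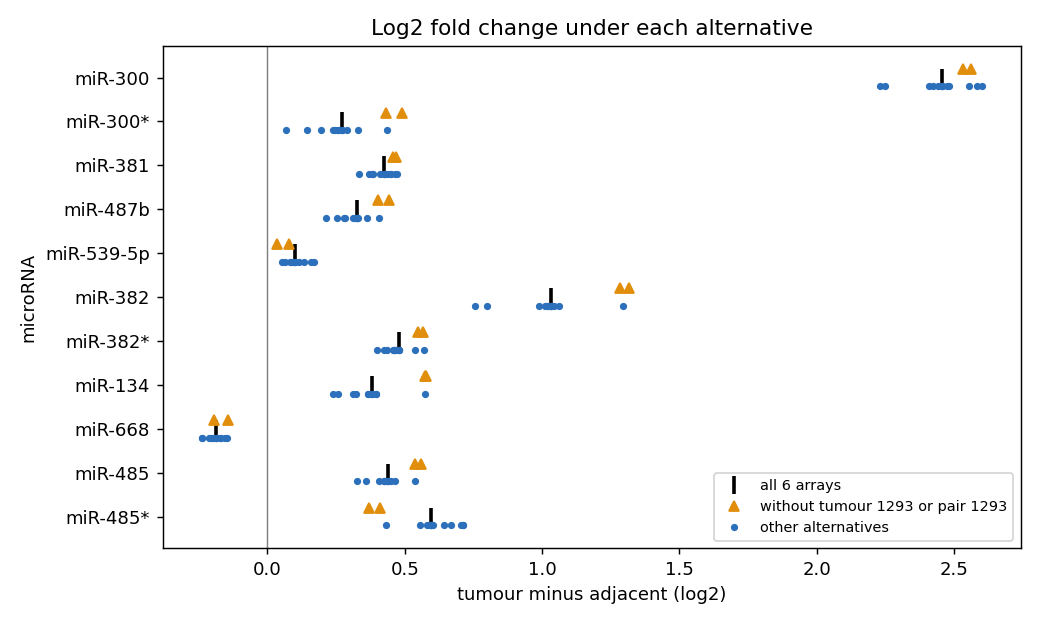
Log2 fold change of each member (horizontal axis) with all 6 arrays (black tick), without tumour 1293 or pair 1293 (orange triangles) and under the other alternatives (blue dots). No member changes sign, and miR-134, miR-300* and miR-382 lie farther right without tumour 1293, whereas miR-485* lies farther left, at 0.37 and 0.41.

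The other hairpins of the Mirg list had 41 rows in the table. Limma called 14 of these higher and 0 lower (22 and 0 at an unadjusted p below 0.05), 34.1% of that list, against 2 of 11 members (18.2%). Their median log2 fold change was 0.37, with a range of -0.13 to 4.52, so the members' median of 0.42 lay beside it while their largest value, 2.45, did not reach the top of that range. Among 21 rows of hairpins before Rian, limma called 1 higher and 0 lower, against 2.59% of all microRNAs called higher, and the median was 0.15. At an unadjusted p below 0.05, 7 were higher and 0 lower, against 5.9% and 14.1% of all microRNAs. Tumours lay above every adjacent piece for 10 of the 21 and below for 1, against 8.63% and 22.9%. The 3 rows of hairpins in Rian had a median of 0.23 and 0 were called (limma; 0 at an unadjusted p below 0.05). By position, miR-300 comes directly after miR-376b and miR-376a, both called higher, and the members after it stayed at log2 fold changes of 0.60 or below, apart from miR-382.

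**Figure D5:**
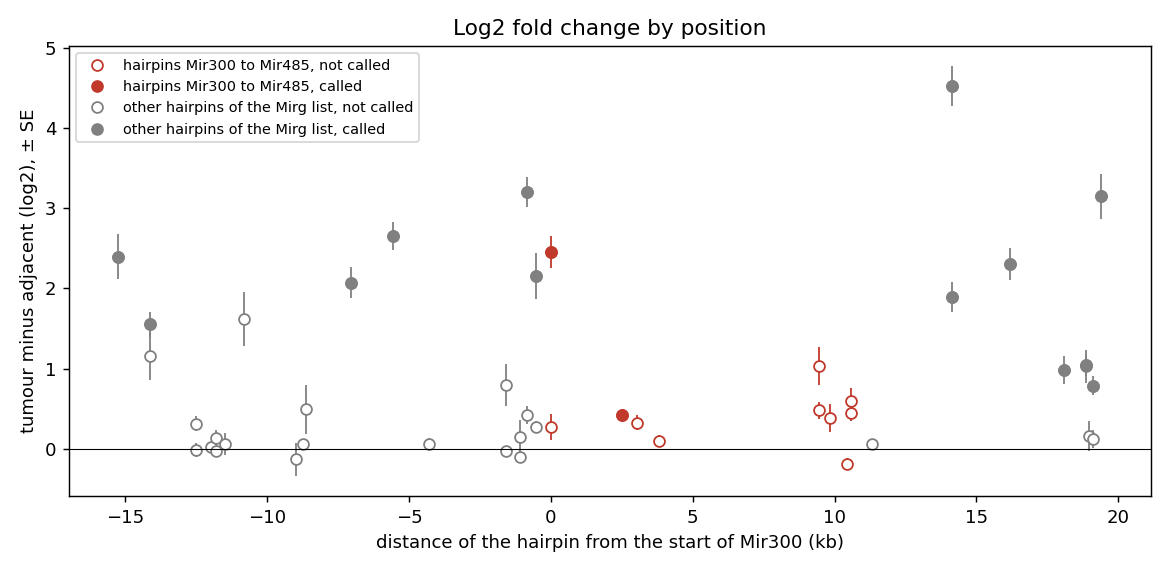
Log2 fold change ± SE (vertical axis) against the distance of each hairpin from the start of Mir300 (horizontal axis, kb), with the members in red, the other hairpins of the Mirg list that could be placed (35 of 41 rows) in grey, and filled points for calls. Called strands with values above 2 lie on both sides of the members, and among the members only miR-300 reaches that height.

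Outside the members, the microRNAs most like miR-300 were miR-377 (0.19), miR-495 (0.20) and miR-379 (0.23), all of the same cluster. Likeness was the root mean square distance over the differences of the 3 pairs, and members were left out of the ranking. In pairs 1293, 1309 and 1316 the differences of miR-377 were 2.03, 2.01 and 2.87, against 2.24, 2.26 and 2.87 for miR-300. Most like miR-381, also outside the members, were miR-92a (0.096), miR-431 (0.097) and miR-496 (0.13). Of these, miR-92a is of the miR-17 cluster on another chromosome, miR-431 from before Rian and miR-496 from after Mir485. The differences of miR-92a were 0.41, 0.34 and 0.46, against 0.34, 0.33 and 0.61 for miR-381. Among the members left out, miR-485 was also close to miR-381, with differences of 0.20, 0.45 and 0.67. These distances rest on 3 pairs and are descriptions.

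Markers of other cells moved with the groups in part. For scale, 22.9% of all microRNAs had every tumour below every adjacent piece. The log2 of the summed level of 3 epithelial and biliary microRNAs was 8.01 to 8.32 in tumours and 8.69 to 8.83 in adjacent liver. All 3 had lower means in tumours, and miR-200a and miR-200b were called lower (limma adjusted p = 0.042 for both). For 4 stromal microRNAs the summed level was 8.56 to 9.01 in tumours and 9.31 to 9.45 in adjacent liver, with 3 lower and 1 higher mean. For 3 leukocyte microRNAs the summed level was 8.91 to 9.38 in tumours and 9.29 to 9.53 in adjacent liver, with 2 lower and 1 higher mean. Both higher means came from pair 1293. In pairs 1293, 1309 and 1316 the differences were 0.36, -0.01 and -0.14 for miR-145, and 0.71, -0.08 and -0.08 for miR-150. The hepatocyte sum, dominated by miR-122, was 14.62 to 15.02 in tumours and 15.01 to 15.06 in adjacent liver, and the log2 fold changes of miR-192 and miR-194 were -0.45 and -0.76 (limma adjusted p = 0.097 and 0.12). The 3 neural markers, for cells in which this cluster is also active, had a summed level of 7.90 to 8.05 in tumours and 8.03 to 8.12 in adjacent liver. Their log2 fold changes were -0.05 for miR-124, -0.06 for miR-9 and -0.16 for miR-128, and none passed (limma adjusted p = 0.69, 0.67 and 0.46). The part of other cell types in the members' differences was not tested.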

How the data were processed

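Total RNA, labelled with cyanine 3-pCp, was measured on 1-colour microRNA arrays, per the labels' protocols. The deposited log2 values (base taken as 2) were made by the authors with RMA (background correction, quantile normalization, summarisation over probes), per the submitters' processing notes, which also name limma, without versions. Base and genome build are not given in the sources used here. The table had 0 missing values and no 2 arrays were identical. Scanner files were not used here, so background correction was not varied.

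All 695 rows were tested with limma 3.58.1 (R 4.3.3), tumour minus adjacent, two-sided, without a block, with Benjamini-Hochberg adjustment at 0.05. Rows on either arm of the 8 hairpins were the members, and all are named. Contrasts between members used exact permutation tests over arrays without pairing (scipy 1.17.1), which with 3 against 3 cannot go below 0.1. Sign flips over the 3 pairs were an alternative, which cannot go below 0.25. The members and lists were chosen with earlier results of these data known. Pairs follow the numbers in the titles, which tie each adjacent piece to a tumour; for the third tumour the source name gives another number, so that pair is less certain. Deviations from group means correlated at -0.05, 0.07 and -0.003 within pairs. Alternatives were the block, quantile normalization, median centring, a filter on dim rows, an intensity trend with robust eBayes, array weights and leaving out arrays or pairs. The fits were tested on simulated data, in which tumours and adjacent pieces had the same spread, unlike in the data here. Hairpins were matched by symbol to RefSeq (8 of 8) and aligned with Biopython 1.88. The number of arrays limits the precision. Whether the tumours came from separate animals is not stated, so p-values cover the spread between these samples.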

Additional observations from a re-analysis of the deposited data

How the results depend on the processing

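Among the members, no log2 fold change turned its direction under any of the 15 alternatives, and miR-300 passed limma's test in each. The replicate block left 1 member called, miR-300, and 1.73% of all microRNAs, against 2 and 2.88% with all arrays. Quantile normalization, median centring and the filter on dim microRNAs also left 1 member called, and under the filter 5.76% of the rows tested were called. Array weights called 9 members and 19.9% of all microRNAs. Leaving out 1 array or 1 pair gave between 1 and 9 called members and between 1.29% and 19.6% of all microRNAs, the highest values without tumour 1293 and the lowest percentage without pair 1316. Without tumour 1309, 8.35% of all microRNAs but still 2 members were called. The contrast of miR-485 minus miR-485* ranged from -0.31 to 0.13, turning positive only without tumour 1293; the other 3 contrasts kept their direction when any 1 array was left out. The filter on dim rows removed miR-134 and miR-539-5p. The cause of these shifts was not tested. Members averaged 6.22 to 6.87 in adjacent liver, low on a scale that reaches 14.82, and whether this limited their folds was not tested.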
